A study of Mus musculus with 18 samples.

Results

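Argonaute 2 (Ago2) sites that lay inside introns were examined in the mouse colonic epithelium. They are the peaks that the authors' annotation gives the class intron, 443 of 5554 merged peaks, beside 2982 in the 3' UTR, 1710 in exons and 165 in the 5' UTR. The 443 peaks carried the labels of 369 genes. The rule used the annotation and no measured level. Of the 443, 275 passed a filter that asked for 5 normalized reads on average across all 6 libraries and were tested. The other members are described by their values.

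The libraries come from HEAP, a form of CLIP-seq in which Ago2 fused to a Halo tag is crosslinked to RNA by UV light, pulled down on HaloLink resin and digested to release the RNA it held. C57BL/6 mice aged 8 to 12 weeks were compared. G12D mice carried Halo-Ago2/+, Fabp-Cre/+ and K-Ras-G12D/+, and WT mice carried Halo-Ago2/+ and Fabp-Cre/+ with wild-type K-Ras, so the tagged Ago2 and the Cre were common to both. Fabp-Cre is a Cre driven by a fatty acid binding protein promoter in intestinal epithelium, while the tissue was a scrape of the distal colon, crosslinked 3 times at 400 mJ per square centimetre. Each genotype had 3 pulldown mRNA libraries, in which the peaks were counted, and 3 miRNA libraries. Whether every library is from a separate animal is not in the labels, and the p-values cover the spread between these libraries, which may be technical. Input controls were not analysed here, so more Ago2 on an intron and more of the intron's RNA cannot be told apart, nor can fewer cells of a type and less RNA per cell.

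Ago2 is the protein that carries a miRNA and is guided by it to partly complementary RNA. Pairing rests mainly on the seed near the miRNA's 5' end, and the best known sites are in the 3' UTRs of mature mRNAs in the cytoplasm. Introns are removed from pre-mRNA in the nucleus, where Argonaute proteins have also been found. In the intestinal epithelium, miR-194 is a marker of the differentiated lineage and the miR-200 family maintains epithelial identity, while let-7 restrains growth-promoting genes in many tissues.

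The G12D pulldown libraries were deeper, with 148927, 723937 and 247358 reads in merged peaks, against 100978, 54401 and 148770 reads in the WT libraries. The intron peaks held 5205, 27520 and 9007 of those reads in G12D and 1964, 745 and 3269 in WT. Between 26 and 39 of the 443 intron peaks had 0 reads in a G12D library, against 212 to 273 in a WT library. Of 41 colonocyte and goblet cell marker genes 36 had a merged peak, with summed levels of 13560 to 16530 normalized reads in G12D libraries and 15150 to 17380 in WT libraries. Of 33 genes of stromal, muscle and blood cells none had one.

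Seed matches of 3 miRNA families stood in 43.3% of the intron peaks (192 of 443, Wilson 95% interval 38.8 to 48.0%), against 18.3% of exon peaks (16.5 to 20.2%), 14.4% of 3' UTR peaks (13.2 to 15.7%) and 17.0% of 5' UTR peaks (12.0 to 23.4%). A full-seed match here is one of the authors' classes 8-mer or 7m8, which pair with all of bases 2 to 8, while their 7A1 and 6-mer classes are counted only where named. The 3 families were chosen as those with the most intron peaks, so the intron figure is a description. The mature miRNA that Ago2 held most of in each family is shown first, from RefSeq (GRCm38.p6), with bases 2 to 8, the seed, in capitals, followed by 2 further families that are taken up in the results.
miR-194-5p: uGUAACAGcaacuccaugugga
let-7b-5p: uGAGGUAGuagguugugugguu
miR-200c-3p: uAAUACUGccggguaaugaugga
miR-29a-3p: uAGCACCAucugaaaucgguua
miR-26a-5p: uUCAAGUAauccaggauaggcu

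The full 8-mer site of each, which pairs with the whole seed and adds an A opposite base 1, is given in DNA letters on the target's strand, since it is the sequence a reader would look for in the introns.
site of miR-194-5p: CTGTTACA
site of let-7-5p: CTACCTCA
site of miR-200c-3p: CAGTATTA
site of miR-29-3p: TGGTGCTA
site of miR-26-5p: TACTTGAA

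The miR-194-5p seed matched 74 intron peaks, 16.7% of the class (13.5 to 20.5%), against 3.68% of exon peaks and 3.76% of 3' UTR peaks. let-7-5p and miR-98-5p, which share a seed, matched 71 intron peaks, 16% (12.9 to 19.7%), against 10.2% of exon and 5.90% of 3' UTR peaks. The seed of miR-200b-3p, miR-200c-3p and miR-429-3p matched 53 intron peaks, 12.0% (9.26 to 15.3%), against 4.56% of exon and 5.16% of 3' UTR peaks. In these 3 families the intervals of introns lay above those of exons and of 3' UTRs. The miR-26-5p family was also more frequent, in 16 intron peaks or 3.61% (2.24 to 5.79%), against 1.17% (0.758 to 1.80%) of exon and 1.48% (1.10 to 1.97%) of 3' UTR peaks. For miR-29-3p, with 24 intron peaks or 5.42% (3.67 to 7.93%), the interval overlapped that of exons (2.68 to 4.43%) and that of 3' UTRs (2.89 to 4.21%). The opposite order was seen for the miR-15/16 family, whose seed matched 9 intron peaks, 2.03% (1.07 to 3.82%), against 5.79% (4.78 to 7.0%) of exon and 4.39% (3.71 to 5.19%) of 3' UTR peaks. Here the interval of introns lay below that of exons but overlapped that of 3' UTRs. The intervals treat peaks as independent and cover counting error only, and no test of the differences was made.

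Nearly all intron peaks with such a seed match had been called in the G12D list alone. The authors called peaks in each genotype, and of the 443 intron peaks 387 overlapped a peak of the G12D list only, 52 a peak of the WT list only, and 4 a peak of both. A full-seed match was listed for 311 of the 387 G12D-only intron peaks, 80.4% (76.1 to 84.0%), and for 1 of the 52 WT-only intron peaks, 1.92% (0.34 to 10.1%). In the 3' UTR the shares were 56.6% (54.6 to 58.6%) for the G12D-only and 57.3% (47.3 to 66.7%) for the WT-only list, and in exons 58.9% (56.0 to 61.7%) and 42.7% (36.2 to 49.4%). The gap between the lists was thus widest for introns. The single WT-only intron peak with a match lay in Gmds and matched miR-30a-3p and its kin. With the 7A1 class counted too, 348 of the 387 G12D-only intron peaks had a match, 89.9% (86.5 to 92.5%), against 3 of the 52 WT-only ones, 5.77% (1.98 to 15.6%). With 7A1 and 6-mer matches counted, 372 of the 387 G12D-only intron peaks had a match, 96.1% (93.7 to 97.6%), against 9 of the 52 WT-only ones, 17.3% (9.38 to 29.7%). How the authors chose the matches they list is not given in the sources used here.

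**Figure D1:**
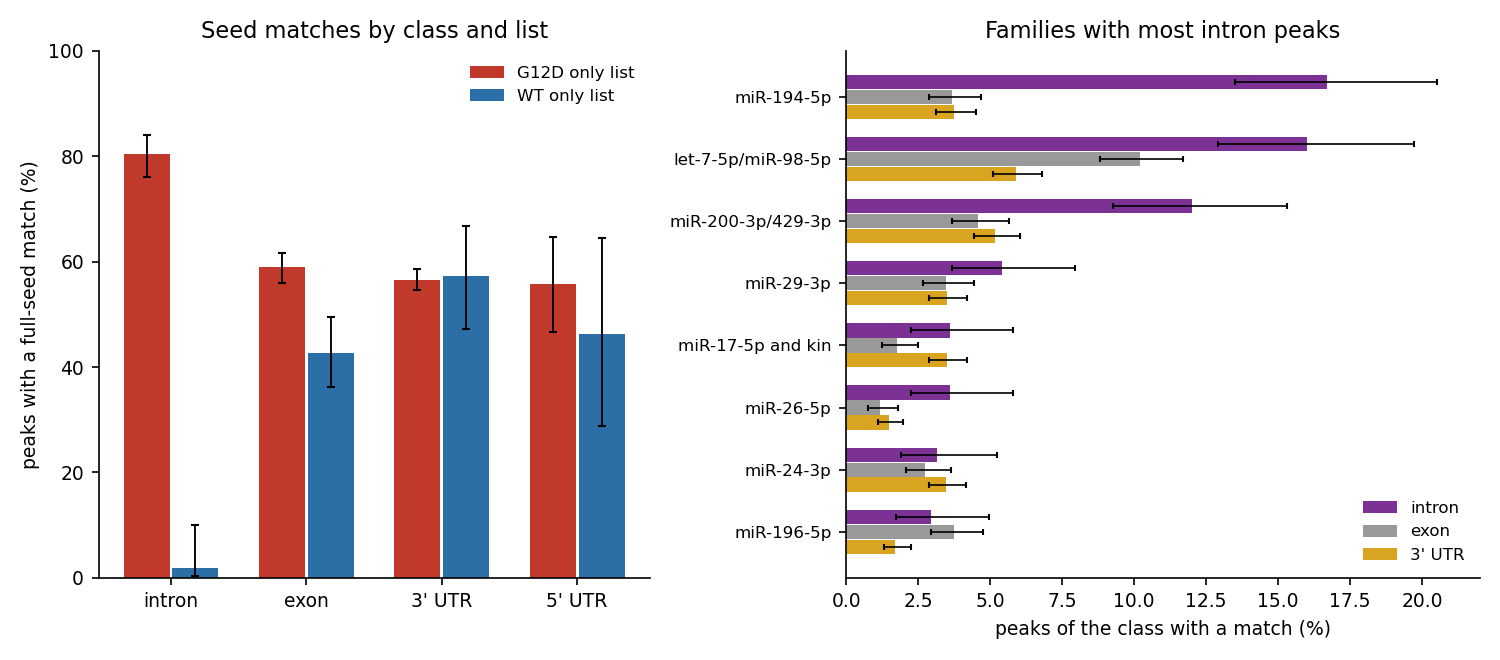
Left, share of peaks with a listed full-seed match (y axis, %) by class, for peaks of the G12D-only list (red) and the WT-only list (blue). Right, share of the peaks of each class (x axis, %) that match each of the 8 families with the most intron peaks, with bars for introns (purple), exons (grey) and 3' UTRs (yellow). Error bars are Wilson 95% intervals, and the WT-only bar for introns stands at 1.92% beside 80.4% for the G12D-only list.

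Of the 315 intron peaks with a full-seed match, 191 had an 8-mer, and 88 had sites of at least 2 families, up to 4 in 1 peak. In all, 58 families had a site in an intron peak. let-7 had the most 8-mers, 46, followed by miR-194-5p with 38 and miR-200/miR-429 with 32. Ago2 held these miRNAs in both genotypes. In the miRNA libraries miR-194-5p had 22880, 33180 and 30340 normalized reads in G12D and 19630, 24800 and 15670 in WT. The 9 let-7 and miR-98 members summed to 12490, 18030 and 10630 normalized reads in G12D and 12710, 9259 and 14590 in WT. The 3 miR-200/miR-429 members summed to 53690, 63430 and 57750 in G12D and 61360, 39710 and 37540 in WT. In each of the 3 families the genotypes overlapped. The 2 miR-26-5p members did not: they summed to 19620, 22480 and 19010 in G12D and 14850, 13800 and 12500 in WT. The 3 miR-29-3p members overlapped, at 1284, 1889 and 1260 in G12D and 909, 1028 and 1539 in WT. These differences in loading were not tested here.

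Averaged over all 6 libraries, intron peaks were low. Their median was 5.81 normalized reads over the 6 libraries, against 11.9 for exon and 9.0 for 3' UTR peaks, and their median width was 52 bases. The G12D-only intron peaks had a median of 9.84 normalized reads in G12D and 0.708 in WT, and the WT-only ones had 0.206 in G12D and 20.7 in WT. In G12D the level of G12D-only intron peaks was close to that of the other G12D-only peaks, with medians of 10.9 in exons and 10.4 in the 3' UTR. For WT-only peaks the medians in WT were 32.1 in exons and 23.7 in the 3' UTR. In 140 of the 387 G12D-only peaks the 3 WT libraries held no read at all, and in 17 of the 52 WT-only peaks the 3 G12D libraries held none. The weakest G12D-only intron peak had a G12D mean of 4.66 normalized reads and the weakest WT-only one a WT mean of 12.5.

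**Figure D2:**
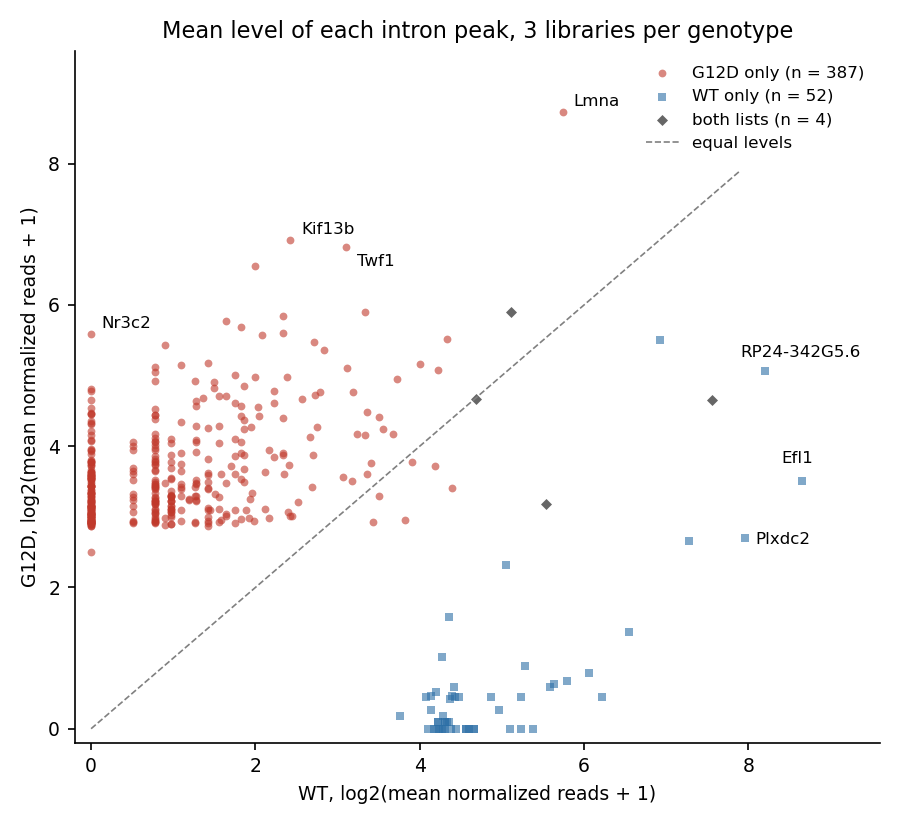
Mean level of each of the 443 intron peaks in G12D (y axis) and in WT (x axis), both as log2(mean normalized reads + 1) over 3 libraries. Red circles are peaks of the G12D-only list, blue squares peaks of the WT-only list, black diamonds the 4 peaks of both lists, and the dashed line marks equal levels. The peaks form 2 arms, with the 4 shared peaks between or below them and Lmna far above the other red circles.

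Most tested intron peaks were called, in both directions. limma called 180 of the 275 tested intron peaks higher and 49 lower in G12D at an adjusted p under 0.05, where it called 36.2% of all 4438 tested peaks higher and 12.7% lower. The median log2 fold change was 2.70 over tested intron peaks and 1.05 over all tested peaks. Fold changes here are on the log2(normalized reads + 1) scale, which understates the change of low peaks. All 180 that rose came from the G12D-only list and 47 of the 49 that fell from the WT-only list, so the direction is largely fixed by which genotype's list held the peak. A G12D-only intron peak with few WT reads also passes the filter through its G12D level alone, so the shares by list are a description, and no test of their differences was made. Of tested G12D-only peaks 82.2% of those in introns were called higher, against 47.0% over all classes, and of tested WT-only peaks 90.4% of those in introns were called lower, against 74.3%. limma called 0 G12D-only intron peaks lower and 0 WT-only intron peaks higher, with 0 in either set at an unadjusted p under 0.05. edgeR called 1 G12D-only intron peak lower and DESeq2 none, and neither called a WT-only one higher.

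In 330 of all 443 intron peaks every G12D library lay above every WT library, an arrangement shown by 50.1% of all merged peaks, and in 43 every G12D library lay below, shown by 12.1%. With no filter on low values limma called 334 higher and 49 lower of the 443, against 44.9% and 10.5% of the 5504 peaks then tested. The authors' deposited table holds 311 intron peaks called higher and 51 called lower, against 37.9% and 11.6% of its peaks. Of these, 173 and 46 were also called by limma after the filter, and 0 were called in opposite directions. Quantile normalization, under which the median over all tested peaks was 0.16 in place of 1.05, gave 101 intron peaks higher and 57 lower of 275. Over all 4438 tested peaks it gave 873 higher and 802 lower, so its share of falls in introns was near that of all peaks.

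The calls of peaks with and without a full-seed match followed the lists. Of the 184 tested intron peaks with one, limma called 150 higher and 1 lower, with a median log2 fold change of 2.90. Of the 91 tested without one, it called 30 higher and 48 lower, with a median of -2.86, and 51 of these 91 were WT-only peaks. Among tested G12D-only intron peaks limma called 150 of 180 with a match higher (83.3%, median 2.94) and 30 of 39 without one (76.9%, median 3.34), and the difference was not tested. By family, 39 of 48 tested miR-194-5p peaks rose, 36 of 45 let-7 peaks, 26 of 30 miR-200/miR-429 peaks, 9 of 10 miR-29-3p peaks and 8 of 8 miR-26-5p peaks, beside 82.2% of all tested G12D-only intron peaks. The shares of miR-194-5p and let-7 lie close to that level, and nothing particular to a family is read from these counts. limma, edgeR and DESeq2 each called 0 lower in these 5 families, and 0 were lower at an unadjusted p under 0.05 in limma.

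The share of a library's peak reads that fell in introns does not depend on a size factor. It was 3.5%, 3.80% and 3.64% in the G12D libraries and 1.95%, 1.37% and 2.20% in the WT libraries, so every G12D library was higher. The means were 3.65 ± 0.153% in G12D and 1.84 ± 0.424% in WT (SD, n = 3 each), a difference of 1.81 percentage points (exact permutation test, two-sided, p = 0.1, the smallest that 3 against 3 can give). The share in 3' UTR peaks was also higher in every G12D library, at 39.6 ± 4.38% against 26.9 ± 2.71% in WT (SD, n = 3 each). Exon peaks took less in G12D, 47.8 ± 4.78% against 58.4 ± 0.858%, as did 5' UTR peaks, 3.21 ± 0.235% against 5.44 ± 0.968%. The rise is thus not particular to introns. The intron peaks were mostly called in G12D: 387 of 443, 87.4%, were G12D-only, against 4275 of all 5554 merged peaks. The p-value takes no account of this choice of peaks, and the part of the lists in the intron share was not tested. Intron peaks with a full-seed match, 311 of 315 of them G12D-only, took 2.44%, 3.00% and 2.89% of the reads in G12D and 0.325%, 0.428% and 0.325% in WT. Those without a match took 1.06%, 0.805% and 0.754% in G12D and 1.62%, 0.941% and 1.87% in WT, and here the genotypes overlapped (exact permutation test, two-sided, p = 0.2). Over the 4 intron peaks of both lists the share was lower in G12D, at 0.130 ± 0.0370% against 0.221 ± 0.0828% in WT (SD, n = 3 each; exact permutation test, two-sided, p = 0.3). The summed level of the 4 nuclear-retained long RNAs with a peak, of 10 listed, was 1308 to 1656 normalized reads in G12D libraries and 785 to 1337 in WT libraries, and its part in the share of intron reads was not tested.

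**Figure D3:**
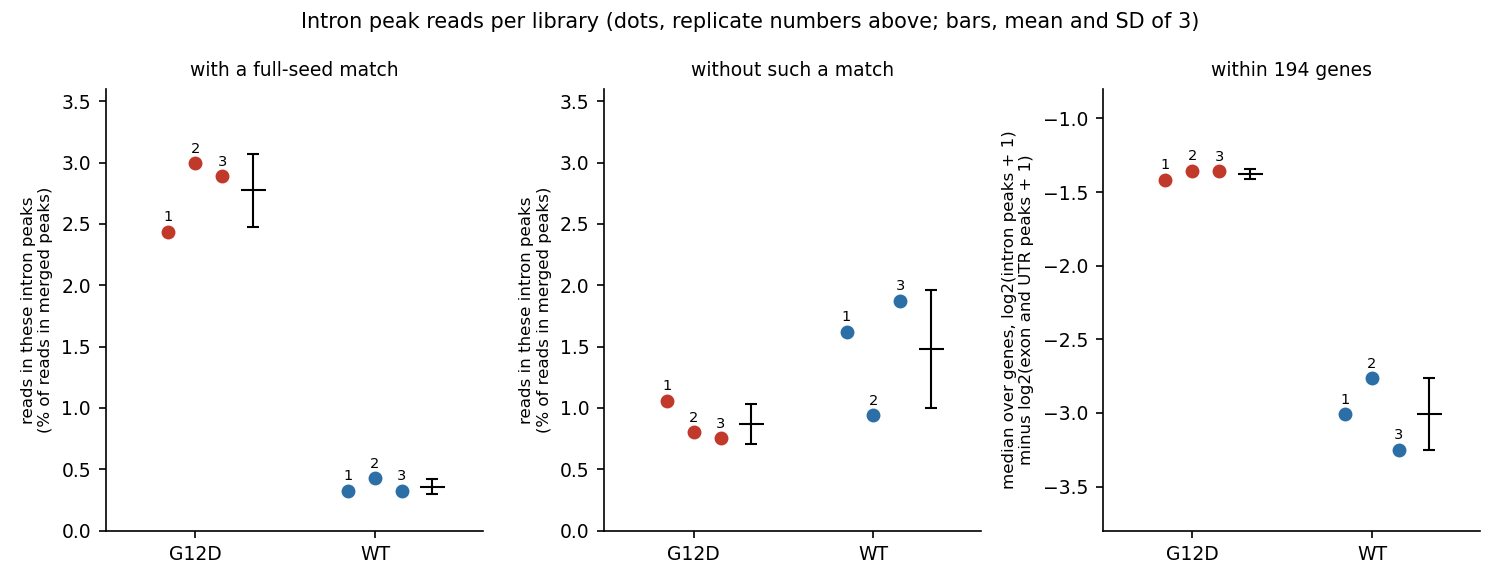
Reads in intron peaks in each pulldown library, G12D (red) left of WT (blue). The left and middle panels give the percentage of peak reads in intron peaks with and without a full-seed match, and the right panel gives the median over 194 genes of the log2 ratio of intron to exon and UTR peaks. Dots are libraries with their replicate number, and the bars are the mean and SD of 3. G12D lies at 2.77% against 0.359% in WT in the left panel, and the libraries of the genotypes interleave in the middle panel.

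Introns were then set against other sites of the same genes. An exon or UTR peak was present in 194 of the 369 genes, 52.6%, while in 171 genes the only annotated peaks were in introns. Over the 194 genes the median log2 ratio of intron to other peak reads was -1.42, -1.35 and -1.36 in G12D libraries and -3.01, -2.77 and -3.25 in WT libraries, and the genotypes did not overlap. The difference was 1.63 on the log2 scale (exact permutation test, two-sided, p = 0.1, the smallest possible). It was 0.66 with a pseudocount of 5 and 1.10 with 3' UTR peaks as the only other peaks. The G12D-only list held 87.4% of intron peaks, against 68.0% of exon and 82.1% of 3' UTR peaks, and the part of the lists in this ratio was not tested. In totals over these genes, intron reads were 23.4%, 19.6% and 21.3% of exon and UTR reads in G12D and 6.67%, 6.04% and 9.97% in WT.

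Gene by gene, 119 genes had a tested peak of both kinds, and in 83 of them the median log2 fold change of the intron peaks was above that of the exon and UTR peaks. The medians were 2.57 for introns and 1.03 for the other peaks. Both kinds of peak share the same 6 libraries and the same filter, which low intron peaks pass mainly through the genotype where they are high, so these counts are a description.

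The 10 intron peaks that rose most lay in Nr3c2, Upf1, Zfp644, Erbb3, Trip12, Zfand3, Dgcr8, Ddah1, Wdr92 and Kif13b. Nr3c2 encodes the mineralocorticoid receptor, which drives sodium uptake in the distal colon. Its leading intron peak, at chr8:77032489-77032550 on the plus strand (GRCm38), had 50.2, 52.8 and 38.8 normalized reads in G12D and 0, 0 and 0 in WT. With the WT group set to a floor of 3 counts over its libraries it was at least 26.4-fold higher in G12D (log2 fold change 5.58 ± 0.59 SE, limma adjusted p = 0.000127), and it carried a let-7 8-mer. Upf1 encodes the RNA helicase of nonsense-mediated decay. Its peak had 93.8, 64.0 and 120 normalized reads in G12D and 6.37, 0 and 2.58 in WT (log2 fold change 4.93 ± 0.68 SE, limma adjusted p = 0.000304), also with a let-7 8-mer. For Kif13b, a kinesin motor, the values were 87.3, 109 and 162 normalized reads in G12D and 6.37, 2.90 and 3.87 in WT (4.49 ± 0.45, limma adjusted p = 0.000114), again over a let-7 8-mer. The genotypes were far apart in all 3 peaks.

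Erbb3 encodes a receptor of the EGFR family that signals upstream of RAS. Its intron peak had 14.2, 32.2 and 34.5 normalized reads in G12D and no WT read, at least 16.1-fold higher in G12D (log2 fold change 4.71 ± 0.62 SE, limma adjusted p = 0.000287), with 7-mers for miR-24-3p and miR-484. Dgcr8 encodes the partner of Drosha in the first cut of miRNA precursors. Its peak had 17.5, 15.7 and 39.5 normalized reads in G12D and none in WT, at least 10.9-fold higher (4.54 ± 0.62, limma adjusted p = 0.000294), and the listed match was a 7A1 for miR-29-3p. Trip12, a ubiquitin ligase gene, and Ddah1, whose enzyme degrades asymmetric dimethylarginine, also had no WT read. They were at least 17.6-fold and at least 11-fold higher in G12D, and the Ddah1 peak held an 8-mer for miR-205-5p. In Zfand3, over a miR-194-5p 8-mer, the 3 G12D libraries were close, at 34.9, 34.7 and 32.3 normalized reads, against 2.12, 0 and 0 in WT (4.58 ± 0.66, limma adjusted p = 0.000379). Zfp644 and Wdr92, with 2 and 3 WT reads, rose by 4.74 ± 0.70 and 4.51 ± 0.89. The limits for peaks with no WT read rest on WT replicate 3 more than on the other WT libraries: without it they were 13.5-fold for Nr3c2, 8.25-fold for Erbb3, 5.59-fold for Dgcr8, 9.05-fold for Trip12 and 5.66-fold for Ddah1. That of Trip12 was 10.8-fold without G12D replicate 2.

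**Figure D4:**
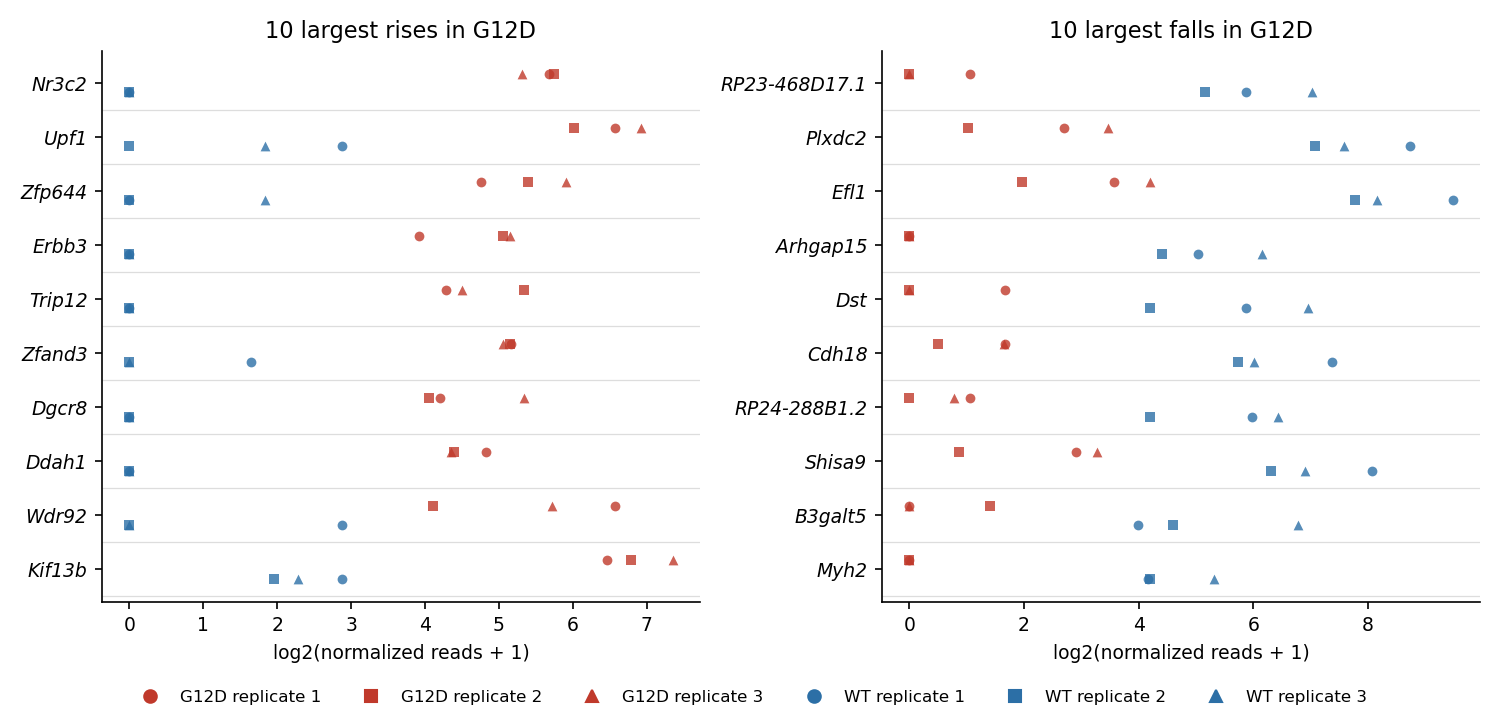
Values in every pulldown library, as log2(normalized reads + 1), for the 10 intron peaks with the largest rises (left) and the 10 with the largest falls (right) in G12D. Each row is 1 peak, with the G12D libraries (red) drawn above the WT libraries (blue) and a marker shape per replicate number. The peaks were chosen among those whose genotypes do not overlap, and WT replicate 1 is the highest library for Plxdc2, Efl1, Cdh18 and Shisa9.

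The 10 that fell most lay in RP23-468D17.1, Plxdc2, Efl1, Arhgap15, Dst, Cdh18, RP24-288B1.2, Shisa9, B3galt5 and Myh2, and no 7-mer was listed for any of them. All 10 were WT-only intron peaks, of which only 1 of 52 had a full-seed match, so nothing is read from this absence. Efl1 encodes a GTPase of 60S ribosome maturation. Its peak, at chr7:82731373-82731422 on the plus strand, had 10.9, 2.89 and 17.2 normalized reads in G12D and 709, 217 and 282 in WT (fell by 5.22 ± 0.59 SE on the log2 scale, limma adjusted p = 0.000172). Plxdc2, a gene for a membrane protein with a plexin domain, had 5.45, 1.03 and 10.1 normalized reads in G12D and 423, 133 and 190 in WT (fell by 5.4 ± 0.62, limma adjusted p = 0.000178). Cdh18, a cadherin gene, and Shisa9, known for an auxiliary protein of AMPA receptors, fell by 5.09 and 4.74 on the log2 scale. In these 4 peaks the same library, WT replicate 1, was the highest.

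The other falls had their highest value in WT replicate 3. The peak in RP23-468D17.1, which had the largest fall of all, had 1.09, 0 and 0 normalized reads in G12D and 57.3, 34.8 and 129 in WT (fell by 5.66 ± 0.67, limma adjusted p = 0.000207). Arhgap15 encodes a GTPase-activating protein for Rac. Its peak had no G12D read and 31.8, 20.3 and 69.6 normalized reads in WT, at least 114-fold lower in G12D. Myh2, a skeletal muscle myosin gene, likewise had no G12D read and 17.0, 17.4 and 38.7 normalized reads in WT, at least 65.9-fold lower in G12D. Both limits rest on G12D replicate 2 and WT replicate 3: without the first they were 36.7-fold for Arhgap15 and 21.3-fold for Myh2, and without the second 64.3-fold and 40.9-fold. In Dst, which encodes the cytolinker dystonin, the peak had 2.18, 0 and 0 normalized reads in G12D and 57.3, 17.4 and 122 in WT (fell by 5.12 ± 0.80, limma adjusted p = 0.00052). Over all 52 WT-only intron peaks, WT replicate 3 was the highest WT library in 44, replicate 1 in 7 and replicate 2 in 1, and over the 393 other WT-only peaks replicate 3 was the highest in 208. Without WT replicate 3 limma called 41 intron peaks lower, among 464 of all 4438 tested peaks.

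Among the 10 intron peaks with the highest mean were, beside Efl1, Plxdc2, Shisa9, Kif13b and Upf1, those of Lmna, RP24-342G5.6, Sdhaf3, RP23-283N14.2 and Twf1. Lmna encodes the nuclear lamins A and C. Its peak had 756, 314 and 205 normalized reads in G12D and 82.8, 55.1 and 19.3 in WT, so that the lowest G12D library was still above the highest WT library (log2 fold change 3.00 ± 0.57 SE, limma adjusted p = 0.00152), and no site was listed for it. Twf1, a gene for an actin monomer binding protein, had 77.4, 113 and 147 normalized reads in G12D and 10.6, 5.80 and 6.44 in WT (3.71 ± 0.42, limma adjusted p = 0.000178), with 7-mers for miR-194-5p and for miR-30a-3p and its kin. The peak in RP24-342G5.6 fell by 3.19 on the log2 scale, to 32.4 ± 13.6 in G12D against 294 ± 89.2 normalized reads in WT (SD, n = 3 each). RP23-283N14.2, whose peak overlaps a tRNA gene, so that reads of the tRNA and of the intron cannot be told apart, had 39.3, 34.9 and 59.6 normalized reads in G12D and 63.7, 177 and 120 in WT (fell by 1.33, limma adjusted p = 0.022). Its call ended without any 1 of G12D replicates 1 and 2 and WT replicates 2 and 3 (limma adjusted p = 0.0644 to 0.0945).

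Of the 4 peaks found in both lists limma called 2, both lower in G12D. Sdhaf3, for an assembly factor of succinate dehydrogenase, had 29.5, 5.16 and 38.1 normalized reads in G12D and 344, 78.3 and 141 in WT (fell by 3.02 ± 0.69, limma adjusted p = 0.00409). Hpcal1, for a neuronal calcium sensor, fell by 2.16, with a miR-375-3p 8-mer. Prss32 and RP23-285C18.2 did not pass, at 0.94 ± 0.55 and -0.04 ± 0.42 (limma adjusted p = 0.17 and 0.935). Hpcal1, Prss32 and RP23-285C18.2 are named here after their values were seen, to complete the 4.

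Several genes carried more than 1 intron peak: 38 genes had 2 and 10 had 3 or more. Of the 22 genes with 2 or more tested intron peaks, 8 had 1 that limma called higher and another called lower. In these 8 the peaks called higher were G12D-only and those called lower WT-only, so the lists largely fix this contrast. With untested peaks counted too, 13 genes had both a G12D-only and a WT-only intron peak. Nr3c2 had the most, 12 peaks over 258155 bases of a gene of 346930, of which 9 were tested, 7 rose and 1 fell. The 7 that rose ranged from 2.15 to 5.58 on the log2 scale. The one that fell, at chr8:77171864-77171920, had 0, 0.206 and 0 normalized reads in G12D and 19.1, 8.69 and 29.6 in WT (fell by 4.09 ± 0.63, limma adjusted p = 0.000485). It stood last in the row of 12, and its groups did not overlap. The single exon or UTR peak of Nr3c2 rose by 2.98.

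Slc9a3, the gene of the NHE3 sodium-proton exchanger, had 6 intron peaks within 26425 bases, of which 5 were tested, 2 rose and 1 fell. One of the 2 that rose, with a let-7 8-mer, had 16.4, 38.2 and 27.3 normalized reads in G12D and 0, 2.90 and 2.58 in WT (3.48 ± 0.71, limma adjusted p = 0.00232). The peak that fell had 0, 0.619 and 0 normalized reads in G12D and 34.0, 0 and 56.7 in WT (fell by 3.43 ± 1.21, limma adjusted p = 0.0343). Its WT libraries spread from none to the highest, and the call ended without any 1 of the 6 libraries but WT replicate 2 (limma adjusted p = 0.108 to 0.158). Without WT replicate 2 it fell by 5.26.

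Gmds encodes the first enzyme of GDP-fucose synthesis from GDP-mannose. Of its 5 intron peaks 4 were tested, 1 rose by 4.20 (limma adjusted p = 0.000293) and 2 fell by 3.44 and 3.79. The third peak of its WT-only list, with 1.09, 0 and 0 normalized reads in G12D and 12.7, 0 and 49.0 in WT, did not pass (-2.79 ± 1.12, limma adjusted p = 0.0563). It passed without WT replicate 2, at -4.36, and stood at -1.54 without WT replicate 3. Tcf7l2, the main TCF transcription factor of WNT signalling in the gut, had 4 intron peaks, of which 2 rose by 2.52 and 3.08 and 1 fell by 3.98 (limma adjusted p = 0.000664). The rise of 2.52 did not pass without G12D replicate 3 (2.22, limma adjusted p = 0.0521). Its 5 exon and UTR peaks were all tested and had a median of 0.40.

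Of the 4 intron peaks of Iqgap2, for a scaffold protein of the IQGAP family, 1 rose by 2.82 and 1 fell by 3.14, the second resting on WT replicates 1 and 3 (21.2, 0 and 63.2 normalized reads in WT, against 1.09, 0 and 0 in G12D). Its call ended without any 1 library other than WT replicate 2 (limma adjusted p = 0.108 to 0.203), it fell by 1.88 without WT replicate 3, and by 4.88 without WT replicate 2. In B3galt5, a galactosyltransferase gene, 2 intron peaks fell by 4.65 and 3.34, while 3 of its 9 tested exon and UTR peaks rose. Both intron peaks that fell were WT-only, and none of its exon and UTR peaks was. St3gal4, a sialyltransferase gene, had 1 intron peak that rose by 3.73 and 1 that fell by 3.97. The 3 tested intron peaks of Atrnl1 rose by 1.83 to 2.69, and the weakest call ended without any 1 of 5 libraries (limma adjusted p = 0.0838 to 0.181). Ctnna1, the α-catenin gene of adherens junctions, had 2 of 3 peaks that rose, by 3.05 and 3.99. Mcu, for the pore of the mitochondrial calcium uniporter, had 2 tested peaks, which rose by 2.27 and 3.54.

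**Figure D5:**
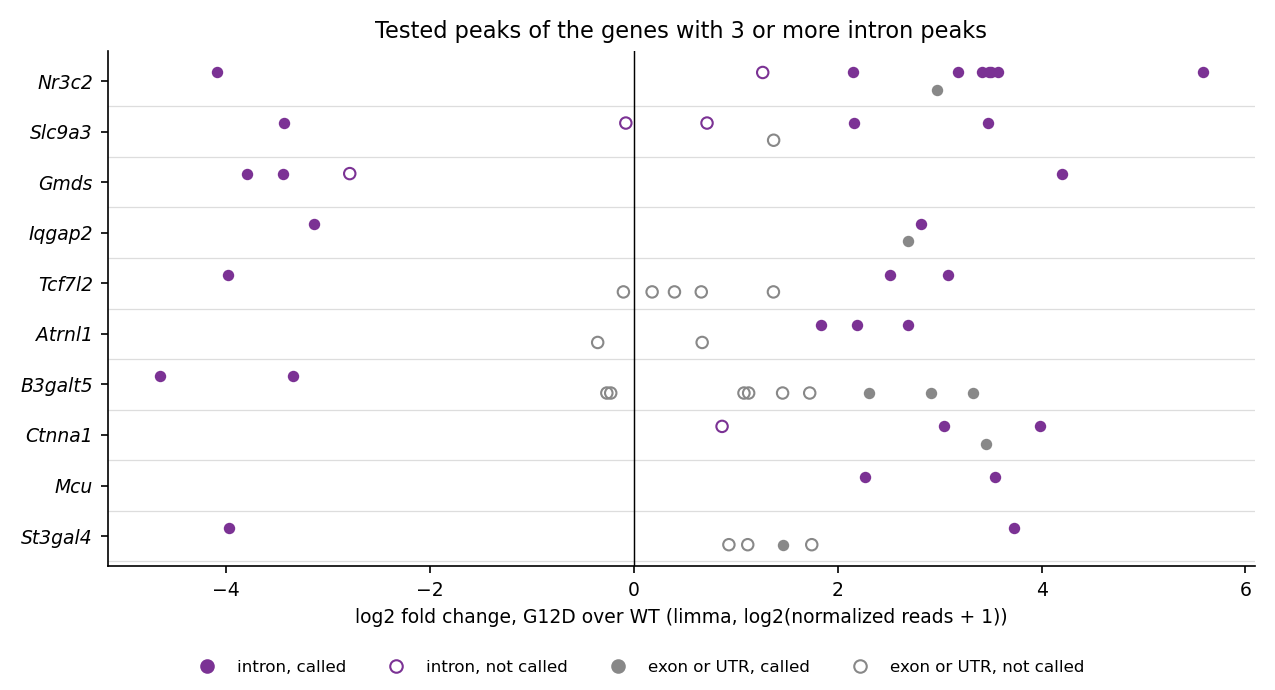
Log2 fold change of G12D over WT (x axis) for each tested peak of the 10 genes with 3 or more intron peaks, with intron peaks (purple) above exon and UTR peaks (grey) in each row. Filled points were called by limma at an adjusted p under 0.05 and open points were not. In 6 of the 10 genes called intron peaks stand on both sides of 0. All intron peaks called lower are WT-only peaks. No exon or UTR peak of these genes was called lower, but none of them is a WT-only peak, so the lists largely fix this contrast.

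Of the colonocyte and goblet cell genes, 11 of 41 had an intron peak. They held 24 intron peaks, 17 tested, of which 11 rose and 4 fell, against 36.2% and 12.7% over all tested peaks and 65.5% and 17.8% over tested intron peaks, with a median of 2.15. In this and the following lists the counts lie near those of introns in general or rest on few peaks, and nothing particular to a list is read from them. Of these 24, 12 are those of Nr3c2. Muc3, a membrane mucin gene, rose by 2.05 ± 0.57 (25.5 normalized reads in G12D and 5.62 in WT, limma adjusted p = 0.0118). Hnf4a, a master transcription factor of enterocytes, and Cdh1, for E-cadherin, had tested peaks that rose by 3.25 and 3.41, without a WT read. The falls were in Ceacam20, Lgals4, Muc13 and Nr3c2. Ceacam20, a brush border adhesion gene, had no G12D read and 21.2, 2.90 and 76.0 normalized reads in WT, at least 105-fold lower in G12D (fell by 4.23 ± 0.92, limma adjusted p = 0.00316). The limit was 32.2-fold without WT replicate 3 and 33.8-fold without G12D replicate 2, and the peak fell by 3.22 without WT replicate 3. Lgals4, for galectin-4, and the mucin gene Muc13 likewise had no G12D read and fell by 3.89 and 3.65.

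For RAS-MAPK genes, 4 of 39 had an intron peak, with 5 peaks, 4 tested and 3 higher in G12D, against 36.2% of all tested peaks and 65.5% of tested intron peaks. Beside Erbb3 these were Spred1, an inhibitor of RAS-MAPK signalling, and Ksr1, a scaffold of RAF and MEK. The Spred1 peak had 18.5, 13.6 and 14.4 normalized reads in G12D and 0, 5.80 and 0 in WT (3.11 ± 0.80, limma adjusted p = 0.00765), with a miR-194-5p 7-mer. The Ksr1 peak had 16.4, 16.9 and 15.8 normalized reads in G12D and 2.12, 0 and 0 in WT (3.57 ± 0.66, limma adjusted p = 0.00135). Map2k1, for MEK1, had a WT-only peak at -2.60 ± 1.05 (limma adjusted p = 0.0585) that limma did not call, while edgeR and DESeq2 each called 1 RAS-MAPK intron peak lower.

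Of the WNT and stem cell genes, 2 of 27 had an intron peak, Tcf7l2 and Prom1, with 4 tested, 3 higher and 1 lower, against 65.5% and 17.8% of tested intron peaks. Prom1, a stem cell surface marker gene, had a peak with 13.1, 21.9 and 11.5 normalized reads in G12D and 0, 2.90 and 0 in WT (3.34 ± 0.71, limma adjusted p = 0.00284). RNA silencing and decay genes had an intron peak in 4 of 31, and 3 of the 4 tested were higher, in Upf1, Dgcr8 and Cnot6l, against 65.5% of tested intron peaks. The fourth, in the deadenylase gene Cnot7, did not pass at 0.98 ± 0.62 (20.2 ± 10.5 normalized reads in G12D and 10.3 ± 7.04 in WT, SD, n = 3 each, limma adjusted p = 0.202). Splicing factor genes had an intron peak in 3 of 41, and the 2 tested peaks, both in Mbnl2, rose by 3.74 and 3.75. They had no WT read, one matching miR-194-5p and the other let-7.

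Cell junction and actin genes had an intron peak in 8 of 34, with 12 peaks, 8 tested, 6 higher and 1 lower, against 65.5% and 17.8% of tested intron peaks, and a median of 2.42, against 2.70. Myh14, for a non-muscle myosin heavy chain, had a peak with 32.7, 17.3 and 33.8 normalized reads in G12D and 2.12, 5.80 and 0 in WT (3.33 ± 0.75, limma adjusted p = 0.00386), over a let-7 8-mer. In Dst, a second peak with a miR-200/miR-429 8-mer rose by 1.91 ± 0.55 (limma adjusted p = 0.0132), opposite to the fall given above. Its call ended without G12D replicate 2 or 3 (limma adjusted p = 0.0905 and 0.0808). Of 10 nuclear-retained long RNAs only Airn, an imprinted antisense transcript, had an intron peak, which rose by 3.33 ± 0.81 (limma adjusted p = 0.00587) and lost its call without G12D replicate 2 or 3 (limma adjusted p = 0.0518 and 0.0546). None of the 24 PI3K-AKT-MTOR genes had an intron peak, and 9 had a peak elsewhere. Among all 2568 genes that label a merged peak only 369 had an intron peak, so nothing is read from this absence.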

How the data were processed

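Colonic epithelium was profiled by HEAP in 3 pulldown mRNA and 3 miRNA libraries per genotype. The submitters' processing notes list STAR 2.5.2b, DESeq2 and the builds mm10 and GRCm38. The sources used here do not give the peak caller, the counting rule, the treatment of duplicate reads or any pooling of libraries. The deposited tables hold a normalized signal, and 100.0% of the peak values above 0 were whole reads within 0.01 once 1 factor per library was undone. The authors' differential table holds log2 fold changes and p-values with their adjusted forms, as its header names them. The score in the deposited peak lists is the authors' and was not used for any result. Classes, gene labels and seed matches are those of the authors' peak annotation, whose marked classes utr3* (93 peaks) and utr5* (55) were kept out of the UTR classes. The class intron has no such mark. Peak columns were matched to the pulldown libraries by genotype code and replicate number.

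G12D was tested against WT with limma 3.58.1 (R 4.3.3) after a pseudocount of 1 and a log2 transform, with the variance allowed to follow the mean, for merged peaks that averaged 5 or more, with Benjamini-Hochberg adjustment over all 4438 tested peaks and a threshold of 0.05. Merged peaks were assigned to the genotype lists by an overlap of at least 1 base on the same strand. Read shares and ratios per library were compared with the exact permutation test. Pooled ratios divide the reads of a group by its summed depth, with exact 95% intervals, and groups at 0 reads were set to 3 counts over the group. RefSeq (GRCm38.p6) gave gene extents and miRNA sequences. Peaks were named by rule: the 10 largest changes in each direction among called peaks whose groups did not overlap, the 10 highest means, the genes with 3 or more intron peaks and the 2 highest per gene list. Other list members were named after their values were seen. Members, lists and tests were chosen with earlier results of these data known. Alternatives covered the pseudocount, filter, scaling, replicate block, variance trend, depth, peak list, each library left out, edgeR 4.0.16 and DESeq2 1.42.0. Same-numbered libraries did not deviate together, so the numbers were not taken to pair them. Intervals and floors cover counting error only.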

Additional observations from a re-analysis of the deposited data

How the results depend on the processing

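The counts of intron peaks called by limma ranged from 141 to 184 higher and from 40 to 52 lower when 1 library was left out, with medians of 2.5 to 2.80. Over all 4438 tested peaks the counts ranged from 977 to 1632 higher and from 433 to 643 lower. The difference in the share of reads then ranged from 1.58 to 1.99 percentage points, and the log2 ratio within genes from 1.51 to 1.75. With the replicate block limma called 182 higher and 54 lower, against 1628 and 592 over all tested peaks. Same-numbered libraries did not deviate together (correlations 0.0415, -0.0357 and -0.0076). edgeR called 156 higher and 55 lower of the 275 and DESeq2 152 and 51. Over all 4438 tested peaks edgeR called 1093 higher and 894 lower, and DESeq2 1130 and 771. For falls, the intron share in both tools was thus close to that of all peaks. With a filter at 20 only 35 intron peaks were tested, of which 17 were higher and 14 lower (median 1.16). Of the 1329 peaks of all classes then tested, 361 were lower, and their median was 0.13. Under this filter the intron shares of rises and of falls were both above those of all tested peaks. With no filter 334 intron peaks were higher, and with quantile normalization 101 (median 1.3). The median was 3.12 with a pseudocount of 0.5 and 1.44 with 5. Over the 4 peaks of both lists limma called 0 higher and 2 lower, with 0 higher at an unadjusted p under 0.05 and by edgeR or DESeq2, a median of -1.10, and a share difference of -0.0904 percentage points. That share difference was 2.42 for intron peaks with a full-seed match and -0.606 for those without, both added after the data were seen. Without the libraries numbered 2, also added then, it was 1.5, with 157 higher and 51 lower, against 1123 and 542 over all tested peaks. The ratio within genes was 1.97 and 0.66 with pseudocounts of 0.5 and 5, 1.10 against 3' UTR peaks and 1.39 after thinning to the shallowest library, where all 3 WT libraries stood at the same -2.90, so that value does not measure stability. It had no value for peaks of both lists, since no gene had both kinds. The cause of these shifts was not tested. The median of intron peaks minus that of all tested peaks was 1.65, and 0.74 to 2.06 under the alternatives other than the peaks of both lists. Of the 39 called among 41 tested named peaks, 31 kept their call under every alternative that tested them, 8 lost it under at least 1 (RP23-283N14.2, Atrnl1, Ctnna1, Iqgap2, Slc9a3, Tcf7l2, Airn and the second of Dst), and of the other 2 Cnot7 was never called and the third WT-only peak of Gmds gained a call. The Ctnna1 peak lost its call only after thinning (limma adjusted p = 0.0591). At the depth of WT replicate 2, 54401 reads, 1 read was worth 2.90 normalized reads, so levels near that value were not measurable there.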

Other observations

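A further 1059 annotated peaks of other classes also carried the label of a gene in whose intron they lie, and were not counted among the intron peaks. Of the 443 intron peaks, 421 could be placed in a RefSeq gene, and all 339 whose host strand was known lay on the strand of their host. The host was the gene of the authors' label, so the agreement may be a property of how that label was given. The host genes were long, with a median of 88358 bases, and the peaks lay at a median of 42.2% of the way into the gene. Among G12D-only intron peaks with a position, 99 of 372 lay in the first 20% of the gene and 48 in the last 20%, and among WT-only ones 8 and 7 of 46. No intron peak lay within 100 bases of a miRNA hairpin, and 1 overlapped another small RNA gene, the tRNA at RP23-283N14.2.

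Introns made up 9.05% of the 4275 G12D-only peaks, 11.7% of the 445 WT-only peaks and 0.48% of the 834 peaks of both lists. For the 3' UTR the shares of the same sets were 57.3%, 21.6% and 52.5%.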
